A study of Mus musculus with 30 samples.

Results

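The 24-h rhythms of liver RNA were measured in 6 libraries from male wild-type C57BL/6J mice of 2 months, collected at ZT1, ZT5, ZT9, ZT13, ZT17, and ZT21, out of 30 libraries in the series. ZT is zeitgeber time, the number of hours after the lights came on. The mice lived in a light/dark cycle with 12 h of light and had free access to chow. The same 6 time points were sampled in male C57BL/6J mice of 6 months and of 12 months (6 libraries each), and these served for comparison. Each age and time point had 1 library, and whether a library held RNA of 1 or of several mice is not stated in the sources used here. A difference between times and a difference between the mice sampled at those times therefore cannot be told apart, and the p-values below measure the scatter of single libraries around a smooth curve. A further pair of 2-month wild-type libraries, from littermate controls of mice lacking *Egr-1* in the liver, was set beside the time course.

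Poly(A) RNA of whole liver was sequenced, and reads per gene were counted. The 2-month libraries held 13727600 to 16557378 counted reads (median 14893853). Levels are given as CPM, the counts of a gene scaled to a common library size with edgeR's TMM factors. Of 54429 gene symbols, 22426 had a count in at least 1 of the 6 libraries, and 9069 had a mean of at least 5 CPM and were tested. *Fosl2* (5.001 CPM) was the gene just inside this minimum, and *Scarf2* (4.998 CPM) lay just outside it. A level of 5 CPM corresponded to 64 reads in the smallest library, for which the exact Poisson 95% interval runs from 3.84 to 6.36 CPM and covers counting error only. For each gene, a cosine with a period of 24 h was fitted to log2(CPM + 0.5). Its amplitude is the height of the peak above the mean on the log2 scale, so that an amplitude of 1 is a 4-fold difference between peak and trough, and its peak is given in ZT. Values after ± are standard errors from the 3 residual degrees of freedom of the 6 libraries.

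The mammalian clock is a loop of transcription factors. BMAL1 (encoded by *Arntl*) and CLOCK bind DNA at E-boxes and switch on the period and cryptochrome genes, whose proteins block BMAL1 and CLOCK in turn. The same pair switches on *Nr1d1* and *Nr1d2*, which encode the repressors REV-ERBα and REV-ERBβ, and these shut off *Arntl* at ROR elements. The PAR-bZIP factors DBP, TEF, and HLF activate genes through D-boxes, where NFIL3 represses them. In liver, this clock works beside feeding, temperature, and hormone signals to time the metabolism of lipids, bile acids, glucose, and drugs.

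Of the 9069 genes tested, 662 had a 24-h rhythm in edgeR's quasi-likelihood test of the cosine and sine terms (7.3%, Benjamini-Hochberg adjusted p under 0.05). The median amplitude was 0.555 in these genes, a 2.16-fold difference between fitted peak and trough, and 0.184 in all genes tested. The fitted difference between peak and trough was at least 2-fold in 419 genes, at least 4-fold in 88, and at least 10-fold in 19. The cosine took up a median of 91.8% of a rhythmic gene's variance, and the standard error of its peak had a median of 0.658 h. The genes were called by their fit to this curve in the same libraries. Their larger amplitudes and close fits are therefore in part fixed by that choice. The unadjusted p was under 0.05 in 2124 genes (23.4%). Leaving out 1 library at a time lowered the number of rhythmic genes to between 297, without ZT13, and 453, without ZT5, and 148 genes kept their call in all 6 such fits.

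The largest share of rhythmic genes peaked around the onset of darkness. In windows of 4 h centred on the sampled times, 182 rhythmic genes (27.5%) peaked around ZT13, against 17.9% of all 9069 genes. Around ZT21 and ZT1 there were 126 (19%) and 121 (18.3%), close to the 16.7% and 16.2% of all genes. The windows around ZT9, ZT5, and ZT17 held 93 (14%), 75 (11.3%), and 65 (9.82%). The fitted peaks of all genes took 14.5% to 17.9% in each window. The share at ZT13 was 34.7% when counts were scaled by library totals alone, 23.5% without the library of ZT1, and 23.6% without that of ZT13. Without the library of ZT1, the windows of ZT13 and ZT21 held 81 genes each. Leaving out 1 library moved the count at ZT5 to between 20, without ZT17, and 41. In the exact permutation test of ranks, the windows of ZT9, ZT13, and ZT21 held 166, 181, and 157 genes. Median amplitudes were 0.627 and 0.611 in the windows of ZT21 and ZT1 and 0.523 to 0.527 in the other windows.

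**Figure D1:**
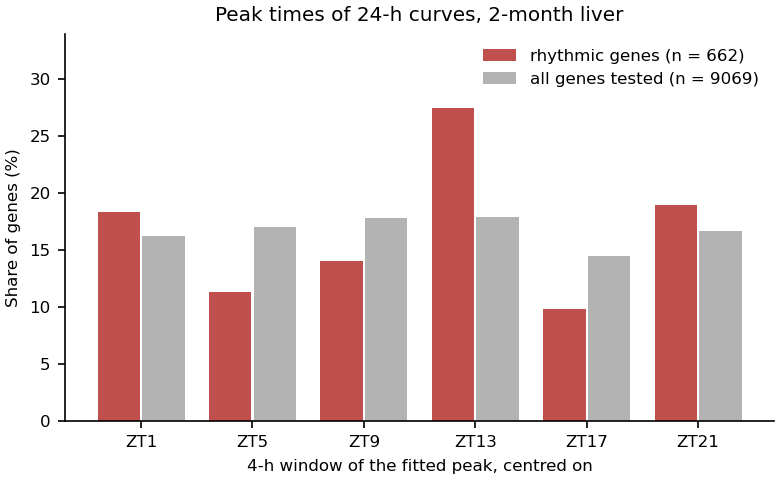
Share of genes (%, vertical axis) whose fitted peak fell in each 4-h window (horizontal axis), for the 662 rhythmic genes (red) and all 9069 genes tested (grey). The red bar at ZT13 reaches 27.5%, against 17.9% of all genes.

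The clock genes had the largest share of rhythmic members apart from the small cell cycle list, and their fitted peaks lay between ZT6.43 (*Nr1d1*) and ZT22.29 (*Clock*). Of 19 clock and clock output genes, 16 passed the minimum and 13 of these were rhythmic (81.2%, against 7.3% of all genes), with a median amplitude of 1.18 over the 16. Without the library of ZT1, 10 of the 16 passed. The members were chosen with earlier results of these data known. *Bhlhe40*, *Cry2*, and *Rora* did not pass (adjusted p = 0.188, 0.193, and 0.521, edgeR). *Npas2*, *Ciart*, and *Bhlhe41* were below the minimum. *Npas2*, a relative of *Clock*, had 9.01 CPM at ZT1 and 6.85 CPM at ZT21 and no read at ZT5, ZT9, or ZT13. *Ciart*, a repressor of BMAL1, went from 0.0693 CPM at ZT1 to 10.2 CPM at ZT9.

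The activators peaked late at night. *Arntl* (chr7:113207465-113314126, GRCm38) had 21.2 CPM at ZT1, 4.61 at ZT5, 0.755 at ZT9, 2.62 at ZT13, 13.7 at ZT17, and 21.4 at ZT21. The levels at ZT21 and ZT1 were the highest, and only 11 reads were counted at ZT9. Its amplitude was 2.12 ± 0.26, with a peak at ZT21.69 ± 0.47 h (adjusted p = 0.00307, edgeR). *Clock* moved in the same direction over a smaller range, from 26.6 CPM at ZT9 to 61.4 CPM at ZT1 (amplitude 0.68 ± 0.06, peak at ZT22.29 ± 0.33 h, adjusted p = 0.00382, edgeR). *Nfil3*, the D-box repressor, was lowest at ZT9 (5.42 CPM) and highest at ZT21 (34.3 CPM), and its fitted peak lay at ZT20.71 ± 0.75 h.

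The REV-ERB genes peaked in the light, *Nr1d2* in opposite phase to *Arntl* and *Nr1d1* some hours earlier. *Nr1d1* (chr11:98767932-98775333) had 10.3 CPM at ZT1, 77.1 at ZT5, 29.8 at ZT9, 8.43 at ZT13, 1.01 at ZT17, and 1.71 at ZT21. This is a single high point at ZT5 and a fitted difference of 45.9-fold (amplitude 2.76 ± 0.26, peak at ZT6.43 ± 0.36 h, adjusted p = 7.66e-05, edgeR). *Nr1d2* peaked later, at ZT9.65 ± 0.14 h, between 11.4 CPM at ZT21 and 123.5 CPM at ZT9.

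*Dbp* (chr7:45705088-45710203) had the largest amplitude of all rhythmic genes. It went from 0.555 CPM at ZT1 to 67.7 at ZT5, 125.8 at ZT9, 39.9 at ZT13, 6.14 at ZT17, and 1.32 at ZT21, which is 8 reads at ZT1 and 1833 reads at ZT9. The fitted difference was 131-fold (amplitude 3.52 ± 0.68, peak at ZT9.60 ± 0.74 h, adjusted p = 0.00019, edgeR). The related factors followed, with *Tef* at ZT11.24 ± 0.66 h (26.1 to 162.0 CPM) and *Hlf* at ZT12.27 ± 0.67 h (22.8 to 51.8 CPM). The call of *Hlf* was lost without the library of ZT1 (adjusted p = 0.11, edgeR).

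The repressors of the loop peaked from dusk into the night. *Per3* had 0.832 CPM at ZT1, 4.98 at ZT5, 22.0 at ZT9, 14.3 at ZT13, 8.10 at ZT17, and 3.27 at ZT21, with a fitted peak at ZT11.79 ± 0.76 h (adjusted p = 0.0045, edgeR). *Per1* and *Per2* were highest at ZT13, at 26.1 and 28.0 CPM, and peaked at ZT13.48 ± 0.81 h and ZT13.63 ± 0.31 h. Their calls were lost without ZT1 and, for *Per1*, also without ZT13 (highest adjusted p = 0.0902 for *Per1* and 0.052 for *Per2*). *Cry1* came last. It had 17.96 CPM at ZT1, 4.86 at ZT5, 8.86 at ZT9, 20.9 at ZT13, 41.6 at ZT17, and 45.5 at ZT21, and its peak of ZT18.54 ± 0.45 h lay after those of the 3 period genes (adjusted p = 0.00019, edgeR). *Cry2* ranged from 15.6 CPM at ZT1 to 27.4 CPM at ZT9.

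**Figure D2:**
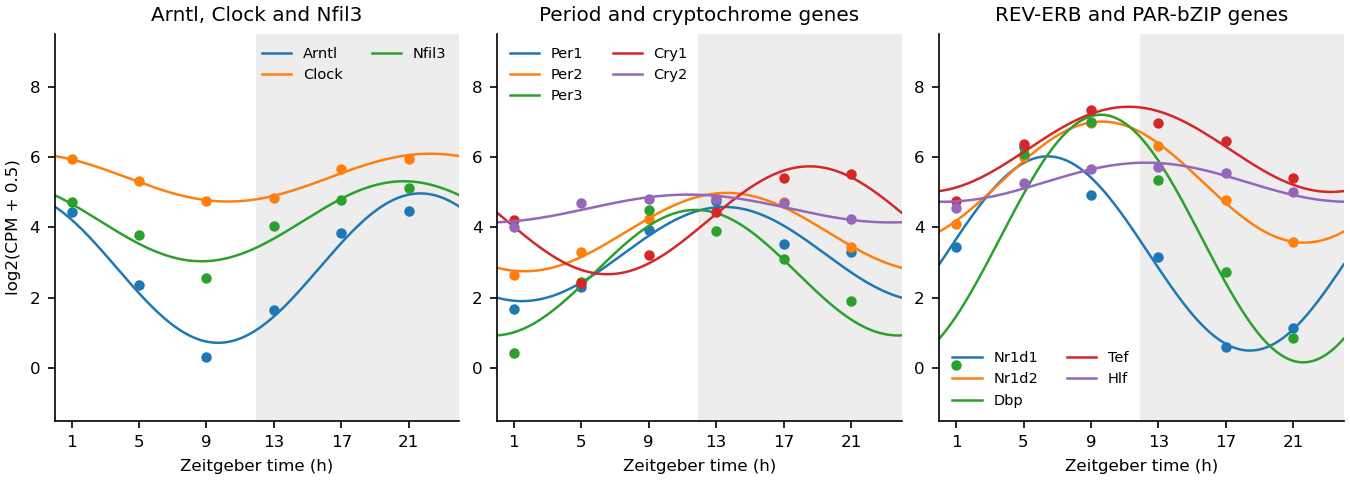
Levels of clock genes (log2(CPM + 0.5), vertical axis) in the 6 libraries of the 2-month liver against zeitgeber time (h), 1 library per point, with the fitted 24-h curves as lines and the dark phase in grey. *Arntl* is lowest at ZT9, where *Dbp*, *Nr1d2*, and *Tef* are highest.

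The letters of the clock's binding motifs were searched on both strands in RefSeq promoters, from 250 bases before to 50 after the annotated start (GRCm38.p6), which were at hand for 7067 genes tested and 511 rhythmic ones. The E-box CACGTG was in 12.3% of all these promoters, in 16.2% of those of rhythmic genes, and in 21.1% and 18.6% of rhythmic genes peaking around ZT9 and ZT13. Around ZT1, ZT5, ZT17, and ZT21 the share was 17.2%, 17.9%, 8.51%, and 11.2%. The D-box (TTATGTAA or TTACGTAA) was in 1.06% of all promoters and in 1.37% of those of rhythmic genes. It was in 6 of 140 (4.29%) of those peaking around ZT13, in 1 of 47 (2.13%) around ZT17, and in 0 in the other windows. The ROR element (ANTAGGTCA or ANTGGGTCA) was in 1.4% of all promoters and in 2.35% of those of rhythmic genes. It was in 5 of 98 (5.1%) of those peaking around ZT21, in 3 of 140 (2.14%) around ZT13, and in 0% to 2.13% in the other windows. These are shares of letters in a window and were not tested. The counts in the rhythmic windows were 4 to 26 genes for the E-box and only 0 to 6 for the other motifs. ROR elements also stood before rhythmic genes of other phases, among them *Trak1* (ZT12.45), *Ivns1abp* (ZT13.87), *Pex11a* (ZT13.92), *Ehd3* (ZT15.52), and *Ocln* (ZT3.52). The stretches below are examples and not all of the matches, shown because they hold the motif in strongly rhythmic genes of known phase. They are written 5′ to 3′ on the strand of the gene, with the matching letters in capitals. They are the pair of D-boxes of *Per3*, the E-boxes of *Per1* and *Cry1*, and the ROR elements of *Nfil3* and *Tjp3*, of which that of *Nfil3* matches on the opposite strand.
Per3, minus strand, chr4:151044791-151044848: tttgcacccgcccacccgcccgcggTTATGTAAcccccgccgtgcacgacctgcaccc
Per3, minus strand, chr4:151044838-151044895: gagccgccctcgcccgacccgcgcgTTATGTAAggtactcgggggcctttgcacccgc
Per1, plus strand, chr11:69098758-69098813: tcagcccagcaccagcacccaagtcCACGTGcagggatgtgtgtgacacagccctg
Cry1, minus strand, chr10:85185084-85185139: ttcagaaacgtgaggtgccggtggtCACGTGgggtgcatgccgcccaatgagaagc
Nfil3, minus strand, chr13:52981040-52981076: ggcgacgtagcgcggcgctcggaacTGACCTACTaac
Tjp3, minus strand, chr10:81291758-81291816: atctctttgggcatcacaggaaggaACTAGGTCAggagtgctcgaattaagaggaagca

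*Per3* carried its D-box letters 158 and 205 bases before the annotated start and peaked at ZT11.79. *Nfil3* carried the ROR element 12 bases before its start and peaked at ZT20.71, and *Tjp3*, 210 bases before its start, peaked at ZT23.20. *Coq10b*, needed for the use of coenzyme Q, held a D-box 162 bases before its start and peaked at ZT11.38 ± 0.79 h, between 8.32 CPM at ZT1 and 77.0 CPM at ZT9. It was named for this match and not for its amplitude. E-boxes also stood 55 bases before the start of *Tjp3* and 75 bases before that of *Aqp8*, which peaked at ZT0.16.

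The genes with the largest amplitudes around ZT1 included membrane and junction proteins. *Aqp8*, a water and hydrogen peroxide channel of hepatocytes, had 296.9 CPM at ZT1, 155.9 at ZT5, 56.0 at ZT9, 32.5 at ZT13, 78.9 at ZT17, and 260.0 at ZT21 (amplitude 1.63 ± 0.10, adjusted p = 0.00131, edgeR). *Cldn1* and *Tjp3*, both of tight junctions, were highest within the same 2 libraries and lowest at ZT13, with ranges of 21.9 to 148.3 CPM and 4.25 to 32.0 CPM. *Tymp*, thymidine phosphorylase, fell smoothly from 57.7 CPM at ZT1 until ZT13, where it had 9.54 CPM (peak at ZT2.02 ± 0.15 h, adjusted p = 0.000453, edgeR).

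*Egr1*, an immediate-early transcription factor and the gene deleted in the other experiment of the series, had 27.3 CPM at ZT1, 8.90 at ZT5, 5.22 at ZT9, 1.45 at ZT13, 1.76 at ZT17, and 6.00 at ZT21. ZT1 stood apart from the other libraries. The amplitude was 1.74 ± 0.31 and the peak ZT2.21 ± 0.69 h (adjusted p = 0.0182, edgeR), and the call was lost without the library of ZT1, of ZT13, or of ZT17 (highest adjusted p = 0.216). *Cidea*, which encodes a lipid droplet protein, was near 0 in all 6 libraries (0 to 0.0693 CPM), so a rhythm was not detectable at this depth.

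Around ZT5, *Nr1d1* was followed by *Clec2h*, *Klhdc7a*, *Arrdc3*, and 1 predicted gene. *Clec2h*, a lectin-like membrane protein, was at 53.0 CPM at ZT5 and 8.30 CPM at ZT17. *Klhdc7a*, a kelch-domain gene, ranged from 5.53 CPM at ZT21 to 29.8 CPM at ZT5 (adjusted p = 0.000276, edgeR). *Arrdc3*, an arrestin-family regulator of receptors, went from 40.6 CPM at ZT13 to 205.2 CPM at ZT5, and its call was lost without ZT5 (adjusted p = 0.0502, edgeR).

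The window of ZT9 held *Dbp*, *Nr1d2*, and 3 genes that are not clock factors. *Rgs16*, a brake on G protein signalling, had the second-largest amplitude named here. It had 1.87 CPM at ZT1, 41.3 at ZT5, 47.9 at ZT9, 34.95 at ZT13, 1.69 at ZT17, and 0.467 at ZT21, so that it was high in 3 libraries in a row and nearly off in the others (27, 25, and 6 reads at ZT1, ZT17, and ZT21). Its fitted difference was 89.7-fold (adjusted p = 0.0013, edgeR). *Gpcpd1*, a glycerophosphocholine phosphodiesterase, went from 52.3 CPM at ZT17 to 384.8 CPM at ZT9. *Pcsk4*, a proprotein convertase, ranged from 1.71 CPM at ZT21 to 22.3 CPM at ZT9 (adjusted p = 0.000162, edgeR).

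Around ZT13, *Usp2*, *Lpin1*, *Alas1*, *Mfsd2a*, and 1 predicted gene led. *Usp2* (chr9:44067021-44095627), a ubiquitin-specific protease, had 1.18 CPM at ZT1, 5.54 at ZT5, 33.8 at ZT9, 40.8 at ZT13, 19.8 at ZT17, and 4.67 at ZT21 (amplitude 2.30 ± 0.23, adjusted p = 0.000219, edgeR). *Alas1* (chr9:106233455-106248654), the first and limiting enzyme of heme synthesis, rose from 52.8 CPM at ZT1 and 60.0 at ZT5 to 445.5 at ZT9 and 738.5 at ZT13 and then fell to 376.0 at ZT17 and 82.6 at ZT21 (adjusted p = 0.000637, edgeR). *Lpin1* (chr12:16535669-16610966), a phosphatidate phosphatase of triglyceride synthesis, was at 483.6 CPM at ZT13 and between 15.8 and 80.5 CPM in the other 5 libraries. The call of *Lpin1* (adjusted p = 0.00173, edgeR) rested on this library and was lost without it (adjusted p = 0.0736). *Mfsd2a*, a transporter of lysophospholipids, likewise had its single high point at ZT13 (35.8 CPM, against 2.12 to 12.2 CPM in the others) and kept its call in all leave-one-out fits.

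*Thrsp*, a regulator of fatty acid synthesis, *Nat8f5*, an acetyltransferase-family gene, and *Cry1* were among the genes of largest amplitude in the window of ZT17. *Thrsp* was at 2580 CPM at ZT13 and 2306 CPM at ZT17 and at 423.9 CPM at ZT5 (adjusted p = 0.0432, edgeR), and this call was lost in each of the 6 leave-one-out fits (highest adjusted p = 0.17). *Nat8f5* went from 4.11 CPM at ZT5 to 28.4 CPM at ZT17 (adjusted p = 0.00212, edgeR). It belongs to a family of similar genes, and reads shared between family members could be counted in part elsewhere.

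At the end of the night, around ZT21, *Elovl3*, *Tubb2a*, *Arntl*, *Cdkn1a*, and *Chka* had the largest amplitudes. *Elovl3* (chr19:46131897-46135694), an elongase of very long-chain fatty acids, had 458.8 CPM at ZT1, 125.3 at ZT5, 42.6 at ZT9, 28.4 at ZT13, 229.0 at ZT17, and 611.3 at ZT21 (amplitude 2.27 ± 0.25, adjusted p = 0.000332, edgeR). *Tubb2a* (chr13:34074274-34078007), a β-tubulin with close relatives, had 117.2 CPM at ZT1, 34.9 at ZT5, 8.99 at ZT9, 12.5 at ZT13, 87.6 at ZT17, and 146.4 at ZT21 (adjusted p = 7.66e-05, edgeR). Both genes were at their lowest near the change from light to dark. *Chka*, choline kinase α, went from 5.63 CPM at ZT9 to 74.9 CPM at ZT1. *Cdkn1a*, the cell cycle inhibitor p21, was lowest at ZT5 (1.37 CPM) and highest at ZT21 (21.9 CPM, adjusted p = 0.0231, edgeR), and its call was lost without ZT5, ZT9, or ZT21 (highest adjusted p = 0.126).

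**Figure D3:**
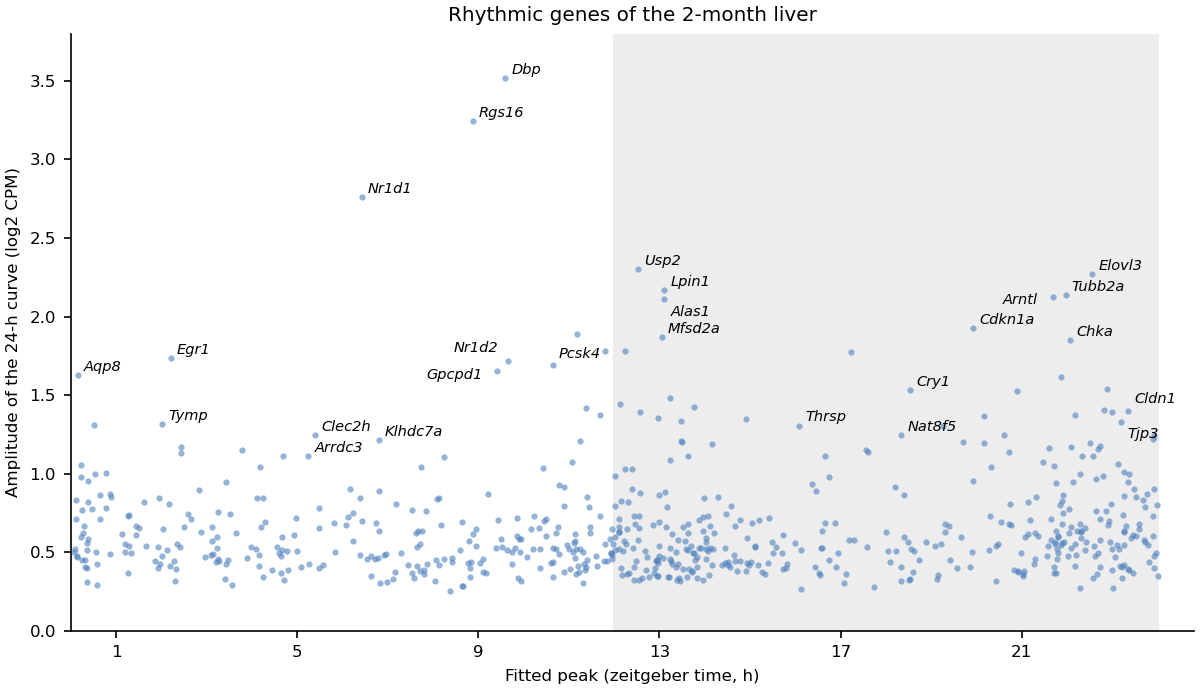
Amplitude of the 24-h curve (log2 CPM, vertical axis) against fitted peak time (ZT, h, horizontal axis) for the 662 rhythmic genes, 1 gene per point, with genes of largest amplitude in each window named and the dark phase in grey. *Dbp* and *Rgs16* stand above 3, and most genes lie below 1.

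Rhythmic members of 16 further functional lists were counted against the background of 7.3% of all genes and its median amplitude of 0.184. Some genes stand on more than 1 list. The lists and their members were chosen with earlier results of these data known, so their shares can be in part fixed by that choice. Together with the clock list, 69 genes of the lists were rhythmic, and this number was 114 when the 6 libraries were fitted alone.

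Genes of fatty acid and triglyceride synthesis were rhythmic in part, and the members peaked at different times. In fatty acid synthesis, 4 of 17 tested genes were rhythmic (23.5%, median amplitude 0.547 over the 17). *Elovl3* and *Insig2*, which helps to hold the sterol sensor SCAP and its partner SREBP in the endoplasmic reticulum, peaked at night's end, and *Insig2* went from 93.5 CPM at ZT13 to 535.6 CPM at ZT1 (adjusted p = 0.000801, edgeR). *Elovl5*, an elongase of polyunsaturated fatty acids, was also highest at ZT1 (312.7 CPM) and lowest at ZT13 (103.8 CPM), and its call was lost in every leave-one-out fit (highest adjusted p = 0.146). *Acly*, which makes cytosolic acetyl-CoA, ranged from 131.0 CPM at ZT9 to 351.8 CPM at ZT21 without passing (adjusted p = 0.059, edgeR).

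In triglyceride synthesis and lipid droplets, 6 of 20 tested genes were rhythmic (30%), and 4 of these peaked around ZT13. They were *Lpin1*, its relative *Lpin2* (60.5 CPM at ZT1, 218.3 CPM at ZT13), *Fitm2*, which helps to form lipid droplets (25.2 to 53.4 CPM), and *Gpat4*, the acyltransferase of the first step (101.4 to 196.4 CPM). *Pnpla2*, the lipase of triglyceride breakdown, was also highest at ZT13 (78.8 CPM) and had its fitted peak at ZT10.72. *Agpat2*, the enzyme of the next acylation step, ran against them, with 116.0 CPM at ZT9 and 271.1 CPM at ZT17, and lost its call without either of these libraries (highest adjusted p = 0.184, edgeR). Only 1 of the 20 passed without the library of ZT13.

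Of the fatty acid oxidation genes, 5 of 22 were rhythmic (22.7%, median amplitude 0.186). *Cpt1a*, the gate of fatty acid entry into mitochondria, had 132.3 CPM at ZT1, 193.1 at ZT5, 304.8 at ZT9, 252.2 at ZT13, 149.3 at ZT17, and 111.3 at ZT21 (peak at ZT9.87 ± 0.25 h, adjusted p = 0.000701, edgeR). *Ppara*, the nuclear receptor of this pathway, peaked at nearly the same time, ZT9.63 ± 0.52 h (36.7 to 82.5 CPM). *Acot4*, an acyl-CoA thioesterase, and *Angptl4*, an inhibitor of lipoprotein lipase, were highest at ZT9 and ZT13, at 49.4 and 106.6 CPM. *Pdk4*, which blocks pyruvate oxidation, was in opposite phase, from 2.09 CPM at ZT13 to 11.2 CPM at ZT1. The calls of *Ppara* and *Pdk4* were lost in every leave-one-out fit (highest adjusted p = 0.236 and 0.162, edgeR). Those of *Acot4* and *Angptl4* were lost without ZT1 and without the library of their own highest level (highest adjusted p = 0.0703 and 0.23), and without the library of ZT1 only 1 member passed.

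Cholesterol synthesis held 1 rhythmic gene among 24 tested (4.17%), although the median amplitude was 0.325. That gene was *Mvd*, mevalonate diphosphate decarboxylase, with 16.1 CPM at ZT1, 6.91 at ZT5, 5.49 at ZT9, 11.6 at ZT13, 26.0 at ZT17, and 28.0 at ZT21 (adjusted p = 0.0161, edgeR). *Hmgcs1*, the synthase at the start of the pathway, had a fitted difference of 4-fold (56.1 CPM at ZT13, 233.2 CPM at ZT21) and an adjusted p of 0.0746, and *Lss* and *Pmvk* had adjusted p of 0.0954 and 0.104 (edgeR). In a fit of the 6 libraries alone, 9 of the 24 passed, and 0 or 1 passed when 1 library was left out. *Mvd* kept its call without ZT1 or ZT13 (highest adjusted p = 0.0917 in the others, edgeR).

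Of 17 genes of bile acid synthesis and transport, 4 were rhythmic (23.5%), and these had their fitted peaks between ZT1.95 and ZT8.14. *Abcb11*, the bile salt export pump, had 593.9 CPM at ZT1, 530.2 at ZT5, 354.0 at ZT9, 197.1 at ZT13, 239.3 at ZT17, and 436.2 at ZT21 (peak at ZT2.17 ± 0.34 h, adjusted p = 0.0045, edgeR). *Abcg5* and *Abcg8*, the partners that form the sterol exporter, peaked together at ZT8.14 ± 0.46 h and ZT6.81 ± 0.56 h, with ranges of 35.8 to 110.8 CPM and 27.7 to 93.8 CPM. *Nr0b2*, which encodes the repressor SHP, went from 18.8 CPM at ZT17 to 65.4 CPM at ZT5. *Abcg5* and *Nr0b2* lost their calls without several single libraries (highest adjusted p = 0.146 and 0.0991), *Abcb11* without ZT13 (0.0566), and *Abcg8* without ZT17 (0.0682). In that last fit, 1 of the 17 passed. *Slco1b2*, an uptake transporter of bile acids, ranged from 1180 CPM at ZT17 to 3157 CPM at ZT9 without passing (adjusted p = 0.175, edgeR).

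A few strong genes led glucose and drug metabolism, and all of them but *Ppp1r3c* (ZT23.12) peaked near dusk. *Gys2*, liver glycogen synthase, had 75.7 CPM at ZT1, 127.3 at ZT5, 272.5 at ZT9, 271.6 at ZT13, 192.5 at ZT17, and 98.3 at ZT21 (peak at ZT12.02 ± 0.28 h, adjusted p = 0.000298, edgeR). *Pfkfb3*, which makes an activator of glycolysis, was highest at ZT13 (44.3 CPM; adjusted p = 0.0503 in edgeR without that library), and *Ppp1r3c*, a glycogen-targeting phosphatase subunit, was lowest at ZT9 and highest at ZT21 (41.1 to 203.4 CPM). These were 3 of 18 glucose genes (16.7%). In drug metabolism, 3 of 20 passed (15%), all around ZT13. *Por* (chr5:135670033-135735326), the electron donor of all microsomal cytochromes P450, had 56.6 CPM at ZT1, 108.9 at ZT5, 262.2 at ZT9, 430.2 at ZT13, 180.7 at ZT17, and 71.6 at ZT21 (adjusted p = 7.66e-05, edgeR). It rose and fell with *Alas1*, which supplies their heme, and with *Cyp2a5*, a P450 of coumarin metabolism with a close copy in the genome (93.5 CPM at ZT1 to 673.6 CPM at ZT9). *Cyp2e1*, among the most abundant P450 messages, ranged from 3233 to 6364 CPM and did not pass (adjusted p = 0.072, edgeR).

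Of the heat shock and cold-inducible genes, 9 of 19 were rhythmic (47.4%, median amplitude 0.518 over the 19), and 8 of these had their peak in the windows of ZT17 and ZT21. *Hsp90aa1*, an inducible chaperone, had 214.5 CPM at ZT1, 168.9 at ZT5, 187.6 at ZT9, 268.6 at ZT13, 584.6 at ZT17, and 466.8 at ZT21 (peak at ZT18.21 ± 0.57 h, adjusted p = 0.00111, edgeR). *Hspb1*, the small heat shock protein HSP27, rose from 4.94 CPM at ZT9 to 27.7 CPM at ZT21. *Fkbp4*, a cochaperone of steroid receptors, rose from 118.5 CPM at ZT9 to 298.2 CPM at ZT17. *Ahsa1* and *Stip1*, cochaperones of HSP90, peaked at ZT18.56 ± 0.58 h and ZT18.41 ± 0.86 h. *Rbm3*, induced by cold and thus of the other kind on this list, peaked at ZT12.21 (30.3 to 72.0 CPM). The count was 5 to 8 when 1 library was left out and lowest without ZT17.

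Genes of amino acid, one-carbon, and NAD metabolism passed in 8 of 30 cases (26.7%) and were spread over the day. *Nampt*, the limiting enzyme of NAD salvage, had 37.7 CPM at ZT1, 48.2 at ZT5, 117.9 at ZT9, 180.1 at ZT13, 106.3 at ZT17, and 63.4 at ZT21 (adjusted p = 0.000204, edgeR). *Amd1*, of polyamine synthesis, peaked with it (ZT12.56 ± 0.41 h). *Cbs*, of homocysteine removal, and *Hal*, of histidine breakdown, peaked early in the light (ZT1.51 and ZT2.36), and *Slc7a2*, an importer of arginine, at ZT7.84. The calls of *Cbs* and *Hal* were lost without ZT13 (adjusted p = 0.0558 and 0.06) and that of *Slc7a2* without ZT9 (adjusted p = 0.109, edgeR). Without ZT9, ZT13, or ZT17, 5 of the 30 passed.

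Among 7 tested genes of the cell cycle list, 6 were rhythmic (85.7%). The list was chosen, like the others, with earlier results of these data known. *Wee1*, a kinase that holds back mitosis, had 0.832 CPM at ZT1, 5.602 at ZT5, 26.4 at ZT9, 15.8 at ZT13, 12.0 at ZT17, and 5.22 at ZT21 (adjusted p = 0.00735, edgeR), and *Plk3*, a stress kinase, was highest at ZT13 (48.7 CPM). *Wee1* lost its call without ZT1 (adjusted p = 0.051) and *Plk3* without ZT1 or ZT13 (highest adjusted p = 0.0895, edgeR). *Tubb2a* and *Cdkn1a* are on this list too. The count was 3 of 7 without ZT1, ZT9, or ZT21 and 2 of 7 in the exact permutation test of ranks at its smallest unadjusted p. *Mki67* and *Top2a*, which mark dividing cells, were among the 11 members below the minimum.

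The glucocorticoid target list had 4 of 14 rhythmic members (28.6%, median amplitude 0.722). *Fkbp5*, a feedback inhibitor of the receptor, had 13.4 CPM at ZT1, 12.9 at ZT5, 30.8 at ZT9, 103.8 at ZT13, 45.3 at ZT17, and 17.6 at ZT21 (adjusted p = 0.00354, edgeR), and its call was lost without ZT13 (adjusted p = 0.0827). *Per1* and *Lpin1* shared its high point at ZT13, and *Cdkn1a*, the fourth member, was highest at ZT21. Without the library of ZT13, 1 of the 14 passed. *Tsc22d3*, another classical target, ranged from 64.3 CPM at ZT9 to 167.8 CPM at ZT17 with an adjusted p of 0.0505 (edgeR).

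Few members passed in the other lists. Of the immediate-early genes, 3 of 16 passed (18.8%), namely *Egr1*, *Junb* (39.2 CPM at ZT5, 7.27 CPM at ZT13), and *Klf10* (40.0 CPM at ZT9, 8.46 CPM at ZT1). *Klf10* lost its call without ZT9 or ZT17 (highest adjusted p = 0.133, edgeR). *Creld2* was the 1 of 20 endoplasmic reticulum genes (5%), with 132.3 CPM at ZT17 and 18.9 to 37.2 CPM elsewhere, so that it rested on 1 library (adjusted p = 0.68 in edgeR without it). *Gnl3* was the 1 of 24 ribosome biogenesis genes (4.17%), and *Stat5b* the 1 of 18 genes of the growth hormone axis (5.56%). *Gnl3* lost its call without ZT1, ZT13, or ZT21, and *Stat5b* without ZT1, ZT9, ZT13, or ZT21 (highest adjusted p = 0.167 and 0.109, edgeR). Of 19 acute-phase genes, 0 passed in edgeR, 4 had an unadjusted p under 0.05, and 4, 7, 6, and 2 were called by DESeq2, by limma, by edgeR on the 6 libraries alone, and by the exact permutation test of ranks at its smallest unadjusted p. *Fgb*, a fibrinogen chain, ranged from 2668 CPM at ZT17 to 4613 CPM at ZT1 (adjusted p = 0.0573, edgeR).

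**Figure D4:**
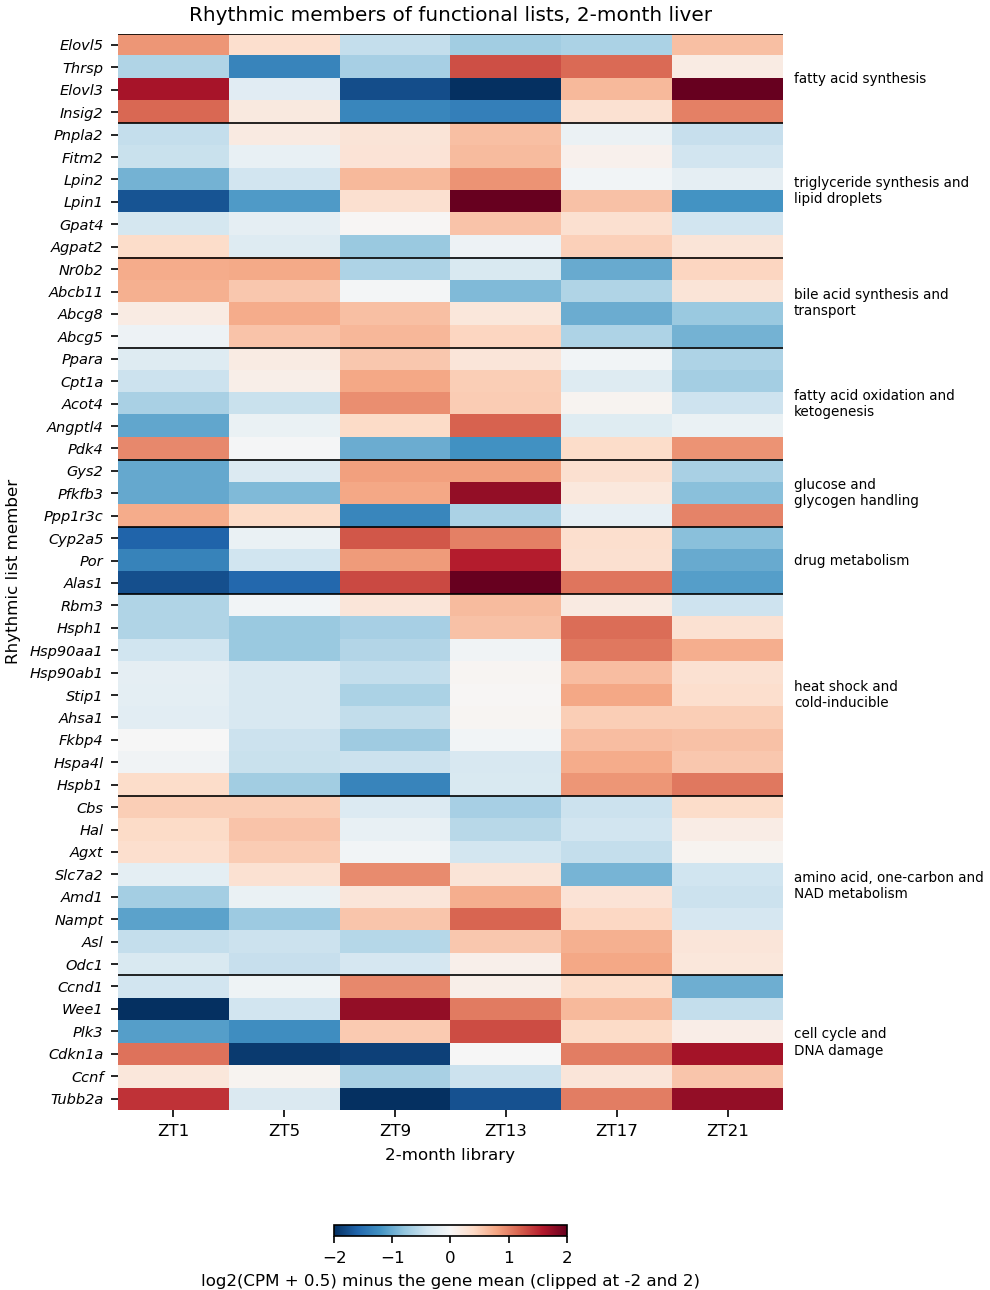
Levels of rhythmic genes in 9 functional lists (rows) in the 6 libraries of the 2-month liver (columns), as log2(CPM + 0.5) minus the gene's mean, from blue (-2) to red (2) and clipped at these values. Genes of triglyceride synthesis and drug metabolism are mostly red at ZT9 to ZT13, and heat shock genes at ZT17 and ZT21.

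The marker genes of hepatocytes summed to 101000 to 115000 CPM over the 6 libraries. Kupffer cell markers summed to 508 to 569 CPM, leukocyte markers to 25.9 to 38.2 CPM, and red blood cell markers to 1120 to 2010 CPM, the last 2 with their highest sum at ZT5 and their lowest at ZT13. Pancreatic markers came to 40.9 to 62.0 CPM, almost all from *Cela1*, with *Cpb1*, *Cela3b*, *Pnlip*, *Amy2b*, and *Cel* at 0. Adipocyte markers came to 24.7 to 31.3 CPM and muscle markers to 0.407 to 1.04 CPM. Of 37 tested markers, 1 was rhythmic (2.7%, against 7.3% of all genes), the endothelial receptor *Kdr* (26.7 CPM at ZT1, 48.5 CPM at ZT13). Their part in the rhythms was not tested. In bulk liver, fewer cells of a type and less RNA per cell cannot be told apart. Mitochondrial transcripts made up 7.62% to 11.3% of the counts.

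The same time points at 6 and 12 months gave libraries that were not used for the 2-month curves but shared the scaling and the spread of the fit, and so bore on the calls. The 2-month libraries fitted alone called 769 genes, of which 536 were among the 662, and the joint fit called 790 without the 6-month library of ZT5. Of the 662 genes, 236 were rhythmic at 6 months (35.6%, against 6.92% of all 9069 genes), which is 37.6% of the 628 genes called at 6 months. Without the 6-month library of ZT5, 284 genes were called at that age, of which 166 were among the 662. At 12 months, 316 were rhythmic (47.7%, against 5.03%), which is 69.3% of the 456 genes called at that age. The unadjusted p was under 0.05 in 65.4% and 81.4% of the 662, against 22.9% and 21% of all genes. When each age was fitted alone, 173 of the 769 genes called at 2 months were also called at 6 months (22.5%) and 171 at 12 months (22.2%). All 3 ages called 165 genes, among them *Por*, *Nr1d1*, *Dbp*, *Elovl3*, *Usp2*, *Tubb2a*, *Nampt*, *Gys2*, and *Alas1*, and 275 genes were called at 2 months and at neither other age.

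Peak times were mostly kept within a few hours, with a delay. The fitted peak lay within 4 h of that at 2 months in 538 of the 662 genes at 6 months (81.3%, against 48.7% of genes not called) and in 606 at 12 months (91.5%, against 59.3%). It was later in 476 and 563 genes, with median differences of 1.27 h (quartiles -0.301 and 2.75 h) and 1.57 h (0.569 and 2.52 h). Later peaks were not counted over all genes tested, so these numbers have no background. The 13 rhythmic clock genes shifted by a median of 2.44 h at 6 months, later in 12 of 13, and by 1.15 h at 12 months, later in 13 of 13. *Arntl* went from ZT21.69 to ZT0.13 and ZT22.84, *Nr1d1* from ZT6.43 to ZT9.59 and ZT7.57, and *Cry1* from ZT18.54 to ZT21.35 and ZT19.73. *Per1* was the exception at 6 months, where it did not pass (adjusted p = 0.338, edgeR). These differences set 6 libraries against 6, with 1 per time point.

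Amplitudes were lower in the older libraries. The median over the 662 genes was 0.555 in the youngest libraries, 0.36 in those of 6 months, and 0.448 in those of 12 months. The value was below that at 2 months in 574 and 529 genes. The genes were called at 2 months, so that a lower value elsewhere is in part fixed by that choice. In order of age, the amplitude of *Rgs16* was 3.24, 1.34, and 2.14, and that of *Elovl3* was 2.27, 2.13, and 2.10. *Egr1* was not called at 6 or at 12 months (adjusted p = 0.0794 and 0.379, edgeR).

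**Figure D5:**
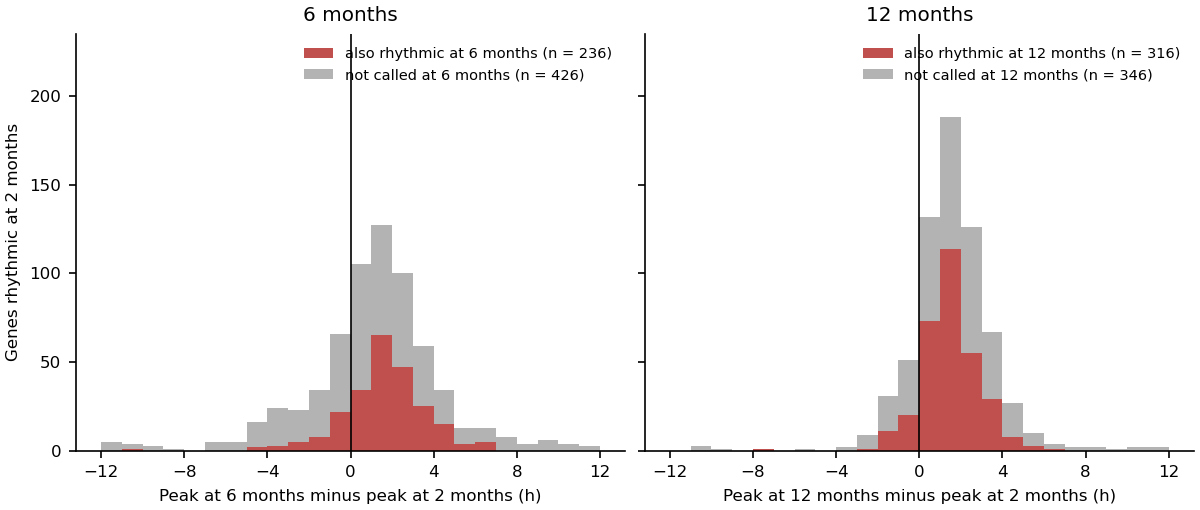
Difference in fitted peak time (h, horizontal axis) between 6 months (left) or 12 months (right) and 2 months for the 662 genes rhythmic at 2 months, as numbers of genes (vertical axis, stacked), with genes also called at the older age in red. Most genes lie to the right of 0, with medians of 1.27 h and 1.57 h.

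A change of the rhythm itself was tested by the differences of the cosine and sine terms. Between 2 and 6 months, 9 of 9069 genes passed (0.0992%, edgeR, adjusted p under 0.05), of which 5 were rhythmic at 2 months, and 1085 had an unadjusted p under 0.05. DESeq2 called 221 genes, and edgeR called 5 when counts were scaled by library totals alone. Without the 6-month library of ZT5, a setting chosen after the data were seen, 0 genes passed in edgeR and 755 had an unadjusted p under 0.05. In the fit of all libraries, *Clec2h* moved from a peak at ZT5.40 to ZT12.35 (adjusted p = 0.0184), and *Cyp2a5* from ZT11.68 to ZT15.86 (adjusted p = 0.0291, edgeR), and without that library the adjusted p was 0.0827 for both. Between 2 and 12 months, 0 genes passed in edgeR (0%), 427 had an unadjusted p under 0.05, and DESeq2 called 11. No clock gene was among the 9, though several lay near the threshold. Between 2 and 6 months, the adjusted p was 0.053 for *Nr1d1*, 0.0728 for *Dbp*, 0.0731 for *Nfil3*, and 0.0862 for *Cry1* (edgeR). It was 0.161 or more in the other clock genes tested.

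The series holds 1 further pair of 2-month wild-type libraries, littermate controls of mice lacking *Egr-1* in the liver, which were collected at ZT13 and ZT17 per the study's methods (19966531 and 15856043 counts). Of 656 rhythmic genes matched by name, 438 differed in the same direction between ZT13 and ZT17 as in the time course. These were 252 of 322 that were higher at ZT13 and 186 of 333 that were higher at ZT17. Of 87 genes with at least a 2-fold difference in the time course, 57 had the same direction. They were 26 of 31 that were higher at ZT13 and 31 of 56 that were higher at ZT17. With 1 library per time there is no test. The same count over all genes was not made, so these numbers have no background. The labels name these libraries only by the highest and lowest zeitgeber time, and the counts of shared directions hold only if the times in the methods apply to them. *Lpin1* had 146.5 CPM at ZT13 and 46.1 CPM at ZT17 in that pair, *Usp2* 46.8 and 16.9 CPM, and *Per1* 31.8 and 13.1 CPM, each falling as in the time course. *Arntl* (5.04 and 4.89 CPM), *Dbp* (28.4 and 24.4 CPM), and *Tubb2a* (85.6 and 94.4 CPM) were nearly level where the time course had steep differences. *Cry1* (48.7 and 16.0 CPM) and *Rgs16* (11.4 and 32.1 CPM) went the other way.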

How the data were processed

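Whole-number counts of reads per gene, deposited without normalization, were used as the authors made them with fastp, HISAT2, and featureCounts on mm10 (per the labels). Counting by strand and the annotation are not given in the sources used here. Genes were listed by symbol. The 6 libraries of 2 months were scaled with TMM factors together with those of 6 and 12 months. Rhythms were tested in edgeR 4.0.16 (R 4.3.3) with a mean, cosine, and sine for each age, in genes averaging 5 CPM or more at 2 months. The study used JTK_cycle, and an exact permutation test of that kind on the ranks of 6 values cannot go below p = 0.0333, or 0.34 after adjustment. It was therefore an alternative, beside limma 3.58.1 and DESeq2 1.42.0. The fit was tested on simulated rhythms. Genes named are the 5 of largest amplitude in each window, the clock list, the 5 of smallest p in every other list, and *Egr1* and *Cidea*. *Pnpla2*, *Rbm3*, *Coq10b*, *Kdr*, *Fosl2*, *Scarf2*, *Mki67*, *Top2a*, *Alb*, and genes of the change test were named after their values were seen. So were *Trak1*, *Ivns1abp*, *Pex11a*, *Ehd3*, and *Ocln*. The members and lists were chosen with earlier results of these data known. Gene locations come from GENCODE M21 (GRCm38), with 9020 of 9069 genes matched. No column was left out. The values of 1 gene that this rule would name are not reported here.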

Additional observations from a re-analysis of the deposited data

Results flagged for a closer look

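The rhythms of 9 genes differed between 2 and 6 months in edgeR's test of the cosine and sine terms, with 1 library per time point at each age. *Steap4*, an acute-phase metalloreductase, ranged from 73.5 to 129.3 CPM at 2 months and ran from 161.9 CPM at ZT17 to 1637 CPM at ZT5 at 6 months (adjusted p = 0.0125, edgeR). *Clec2h*, *Fndc3b*, and *Srm* had the same adjusted p of 0.0184. *Srm*, spermidine synthase, peaked at ZT13.98 at 2 months with an amplitude of 0.85 and had an amplitude of 0.17 at 6 months. For *Cyp2a5*, *Slc30a10*, *Car1*, and *Ndufb1-ps*, the adjusted p was 0.0291, and for *Serpina6*, which encodes the carrier of corticosteroids in blood, it was 0.0354. The peak of *Slc30a10*, a manganese exporter, moved from ZT22.57 to ZT1.98. Without the 6-month library of ZT5, none of the 9 passed (adjusted p from 0.0511 to 0.149, edgeR). At 12 months, none of the 9 differed from 2 months in edgeR (adjusted p from 0.669 to 0.999).

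At 6 months, 11 of 19 acute-phase genes were rhythmic in edgeR, against 0 at 2 months and 5 at 12 months. At 2 months, 4 were called by DESeq2, 7 by limma, and 6 by edgeR on the 6 libraries alone. The 6-month library of ZT5 held the highest 6-month level of 17 of the 19, among them *Steap4*, *Apcs* (4265 CPM), and *Fga* (12810 CPM). It also had the lowest albumin level (*Alb*, 38020 CPM) and the lowest mitochondrial share (5.49%) of the 18 libraries, and their part was not tested. Without this library, a setting chosen after the data were seen, 8 acute-phase genes were rhythmic at 6 months and 1 at 2 months in edgeR. The leukocyte markers summed to 49.7 to 468 CPM in the libraries of 6 and 12 months and to 25.9 to 38.2 CPM at 2 months. Their part in these differences was not tested.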

How the results depend on the processing

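The number of rhythmic genes was 662. It was 661 with DESeq2 size factors, 544 with library totals alone, 674 with filterByExpr, 740 without a filter, 769 with the 2-month libraries alone, 770 in limma, 951 in DESeq2, and 890 at the smallest unadjusted p of the exact permutation test of ranks, which shared 268 genes with the 662. It moved to 434 at a minimum of 20 CPM, to 240 at an adjusted p under 0.01, and to 297 to 453 when 1 library of 2 months was left out, and it was 790 without the 6-month library of ZT5, a setting added after the data were seen. That setting left 166 in place of 236 genes shared with 6 months. The share of peaks around ZT13 moved from 27.5% to 34.7% with library totals alone, 23.3% with the 2-month libraries alone, 22.5% in limma, 20.3% in the rank test, and 23.5% to 31.4% when 1 library was left out. Of the listed genes, 114 in place of 69 passed with the 2-month libraries alone and 114 in limma, and 42 at an adjusted p under 0.01. With each age fitted alone, 171 in place of 316 genes were shared with 12 months. The test of change between 2 and 6 months called 5 genes with library totals alone and 221 in DESeq2, in place of 9, and 0 without the 6-month library of ZT5, and that between 2 and 12 months called 11 in DESeq2, in place of 0. The causes were not tested. No named rhythmic gene reversed its phase with DESeq2 size factors, with library totals alone, or with 1 library left out. The 2-month libraries fitted alone and the other filters, tests, and thresholds reused the main peaks, so a reversal could not show there. The median amplitude of the 662 genes stayed between 0.539 and 0.573, with peaks within 2 h in all of them, under other pseudocounts, library totals, and leave-one-out fits. The 662 genes were called by their fit to these same libraries, so this stability is in part fixed by that choice.

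No paired analysis was possible because each age and time point had 1 library and the libraries share no replicate numbers beyond the first. Low genes are limited by depth, since 64 reads stood behind 5 CPM in the smallest library.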
